A study of Mus musculus with 4 samples.

Results

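The Obox family is a group of homeobox genes that sit together on mouse chromosome 7. The genes were taken as every gene whose symbol is Obox followed by a single digit, which gave 6 of the 24411 genes listed for each library: Obox1, Obox2, Obox3, Obox5, Obox6 and Obox7. They were measured by RNA sequencing in morulae of the outbred ICR mouse strain, made by in vitro fertilization. At the 1-cell stage, 3 h after insemination (hpi), the embryos were electroporated with control siRNA (siControl) or with siRNA against Pwp1 (siPwp1), and both groups were then kept in KSOM medium, to which bovine serum albumin was added, until 72 hpi. Each library held polyadenylated RNA pooled from 10 morulae, and each group had 2 libraries. An siRNA lowers a transcript for as long as it lasts, so the siPwp1 embryos are a knockdown and not a deletion. The labels do not say whether the replicates were separate fertilizations or cultures, so p-values speak only of how far these libraries lie apart, which may be technical. In libraries of whole embryos, fewer cells that carry a transcript and less of it per cell cannot be told apart.

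Obox proteins are transcription factors with a paired-like homeodomain and are found in rodents. Their RNAs mark the oocyte and the first cleavages: Obox1, Obox2, Obox5 and Obox7 are known as maternal copies laid down in the oocyte, while Obox3 is known as a copy transcribed by the embryo when its own genome is switched on at the 2-cell stage. The maternal and the early embryonic copies are known to act redundantly in this genome activation, and Obox6 is known for its expression in later preimplantation embryos and for its use in reprogramming of somatic cells.

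The 6 genes lie within 1.18 Mb. In RefSeq coordinates on GRCm38.p6, the assembly that mm10 names, they run in the order Obox7 (chr7:14659708-14665996, plus strand), Obox2 (chr7:15388851-15398545, plus strand), Obox1 (chr7:15547257-15556846, plus strand), Obox3 (chr7:15625306-15639777, minus strand), Obox5 (chr7:15750370-15759274, plus strand) and Obox6 (chr7:15833250-15839679, minus strand). RefSeq also places 41 Obox pseudogenes in this span, 6 of them named as relatives of Obox3 and 35 as relatives of Obox4. Of these pseudogenes, 0 were among the genes listed for each library, so they could not be analysed here. In GENCODE M21 the models of Obox1 (chr7:15388948-15556866) and Obox3 (chr7:15479825-15639902) are longer and overlap on opposite strands, whereas the RefSeq genes, whose transcripts the deposited values use, lie 68.5 kb apart.

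How far the copies can be told apart by short reads depends on how alike their transcripts are, so the first coding bases are shown. Each line gives 90 coding bases from GENCODE M21, starting at the first coding base, or at coding base 28 for Obox6, whose ungapped match to Obox3 begins there. Capitals mark bases that differ from Obox3.
Obox3: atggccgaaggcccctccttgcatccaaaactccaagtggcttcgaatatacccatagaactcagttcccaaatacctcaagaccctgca
Obox1: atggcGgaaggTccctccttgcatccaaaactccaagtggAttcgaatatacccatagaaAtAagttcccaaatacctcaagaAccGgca
Obox2: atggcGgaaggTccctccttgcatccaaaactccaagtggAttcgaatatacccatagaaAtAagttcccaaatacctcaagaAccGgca
Obox5: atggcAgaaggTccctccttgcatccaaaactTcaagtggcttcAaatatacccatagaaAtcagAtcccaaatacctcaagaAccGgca
Obox7: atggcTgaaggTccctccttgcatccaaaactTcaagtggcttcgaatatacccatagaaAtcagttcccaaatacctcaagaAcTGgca
Obox6: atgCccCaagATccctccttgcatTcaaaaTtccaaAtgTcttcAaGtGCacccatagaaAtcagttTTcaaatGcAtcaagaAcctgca
Obox1 and Obox2 had the same letters in this window, and each differed from Obox3 at 7 of the 90 bases. Obox7 also differed from Obox3 at 7 bases, Obox5 at 8 and Obox6 at 18. Over the aligned coding bases, with gaps left out, Obox1 and Obox2 were 98.5% identical, and Obox3 was 93.0% to 94.1% identical to Obox1, Obox2, Obox5 and Obox7. The coding lengths differ, so gaps were long, for example 159 bases between Obox1 (615 bases) and Obox2 (456 bases). Obox6 stood apart at 75.7% to 80.4% identity with the other members. Of the 100-base windows of the transcripts, 40.9% in Obox1 and 42.5% in Obox2 occurred in another member, while the share was 0 in Obox3 and Obox6, 0.116% in Obox5 and 0.145% in Obox7. Obox3 shared 19.9% of its 100-base windows with annotated Obox pseudogene transcripts, and the other 5 members shared 0. Of 50-base windows Obox3 shared 39.5% with them, and the other 5 members between 1.57% and 7.22%.

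The estimated counts followed the same division. RSEM splits reads that fit several transcripts, which leaves decimals in its expected counts. Within a tolerance of 0.005 the counts of Obox3, Obox5, Obox6 and Obox7 were whole in all 4 libraries, and only Obox1 and Obox2 had decimals. The sums of Obox1 and Obox2 were whole again, at 37 and 108 counts in siControl replicates 1 and 2 and 359 and 243 in siPwp1 replicates 1 and 2. Obox2 took between 62.2% and 64.4% of that sum in every library. The separate values of Obox1 and Obox2 are therefore uncertain, and their sum does not depend on how the reads were split between them. The whole counts of Obox3 speak only of sharing with the listed genes. Pseudogenes were not among these, and their part in the Obox3 counts was not tested.

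The regions just before the genes are shown because the members share a stretch of sequence there. The RefSeq promoter table held 5 of the 6 members, all but Obox6. The 250 bases before the start are given for the embryonic copy Obox3 (chr7:15639778-15640027, minus strand) and for the maternal copies Obox1 (chr7:15547007-15547256, plus strand) and Obox5 (chr7:15750120-15750369, plus strand), all on GRCm38.p6. Capitals mark a run of 25 bases shared by the 5 members and the motif GGATTA.
Obox3: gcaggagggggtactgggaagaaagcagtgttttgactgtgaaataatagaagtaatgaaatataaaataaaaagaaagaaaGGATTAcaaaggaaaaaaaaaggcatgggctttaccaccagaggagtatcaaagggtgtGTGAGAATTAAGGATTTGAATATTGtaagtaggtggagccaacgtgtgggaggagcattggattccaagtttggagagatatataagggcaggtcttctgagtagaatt
Obox1: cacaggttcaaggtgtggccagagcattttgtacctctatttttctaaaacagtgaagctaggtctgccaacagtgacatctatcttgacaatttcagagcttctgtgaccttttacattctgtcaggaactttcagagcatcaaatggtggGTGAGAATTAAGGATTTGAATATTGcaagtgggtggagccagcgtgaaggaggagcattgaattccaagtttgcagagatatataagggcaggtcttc
Obox5: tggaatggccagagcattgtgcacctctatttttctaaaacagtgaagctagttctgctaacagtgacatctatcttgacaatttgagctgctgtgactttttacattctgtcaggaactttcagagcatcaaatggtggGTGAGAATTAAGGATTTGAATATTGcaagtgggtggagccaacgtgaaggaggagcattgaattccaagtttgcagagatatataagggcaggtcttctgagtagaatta
The shared run GTGAGAATTAAGGATTTGAATATTG was found, on either strand, in 0 of the 32846 other promoters of the table. It began 109 bases before the start in Obox3, 98 in Obox1, 110 in Obox5 and 84 in Obox7, and 1 base before it in Obox2. GGATTA, the core bound by paired-class homeodomains of the Otx and bicoid type, was searched together with its reverse complement TAATCC in 300-base windows (250 before to 50 after the start). It occurred in 1 of the 5 member promoters, that of Obox3, 168 bases before the start, and in 7.06% of the 32851 promoters of the table. GGATTA does not overlap the shared run in Obox3. A match is a description of these letters and not a measured binding site.

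The libraries held 28981358 and 44985949 counts in siControl replicates 1 and 2 and 48765229 and 30356988 in siPwp1 replicates 1 and 2, with 15149 to 15976 genes above 0. Log2 CPM, counts scaled to the size of the library, correlated across genes, which are not independent replicates, at 0.905 to 0.947 between any pair of libraries, and libraries of 1 group were not closer than libraries of different groups. Pwp1, the targeted gene, had 215.4 and 364.9 CPM in the 2 siControl libraries against 36.9 and 37.2 CPM in the 2 siPwp1 libraries, a log2 fold change of -2.97 (SE 0.333) with an edgeR adjusted p of 0.22. The libraries thus matched their labels, although Pwp1 did not pass the threshold of 0.05 over the 13585 genes tested. Among 12 morula markers, all tested, Nanog was at 422.4 and 291.0 CPM in the siControl pair and at 197.9 and 273.1 CPM in the siPwp1 pair. Markers of cumulus and sperm cells, which an in vitro fertilized embryo could carry, were mostly at or near 0: 3 of 9 cumulus and granulosa genes and 1 of 6 sperm genes were at 0 in all libraries, and 1 of each list was tested, Amhr2 and Odf1. Amhr2 had 5.24 and 10.4 CPM in the 2 siControl libraries against 11.4 and 19 CPM in the 2 siPwp1 libraries.

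Obox6 made up nearly all of the family's RNA in every library, and the 5 other copies were rare in siControl and higher in siPwp1. In TPM, a transcript abundance scaled by length and library, Obox6 stood at 384.0 and 1201.5 in siControl and at 783.6 and 1374.9 in siPwp1, while the 5 other copies together stood at 3.62 and 3.61 in siControl and at 22.1 and 32.2 in siPwp1. Ranked among all genes by TPM, Obox6 was number 448, 173, 255 and 145 in siControl replicates 1 and 2 and siPwp1 replicates 1 and 2. In the siControl means the order was Obox6, Obox2, Obox5, Obox1, Obox3 and Obox7, with 0.265 to 1.16 TPM for the 5 lower copies, each of which overlapped its neighbour in that order. In the siPwp1 means it was Obox6, Obox3, Obox2, Obox5, Obox1 and Obox7. In siPwp1 the libraries of Obox3 lay above those of Obox2, those of Obox2 above those of Obox5 and Obox1, and those of Obox7 below the rest, and Obox5 and Obox1 overlapped.

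**Figure D1:**
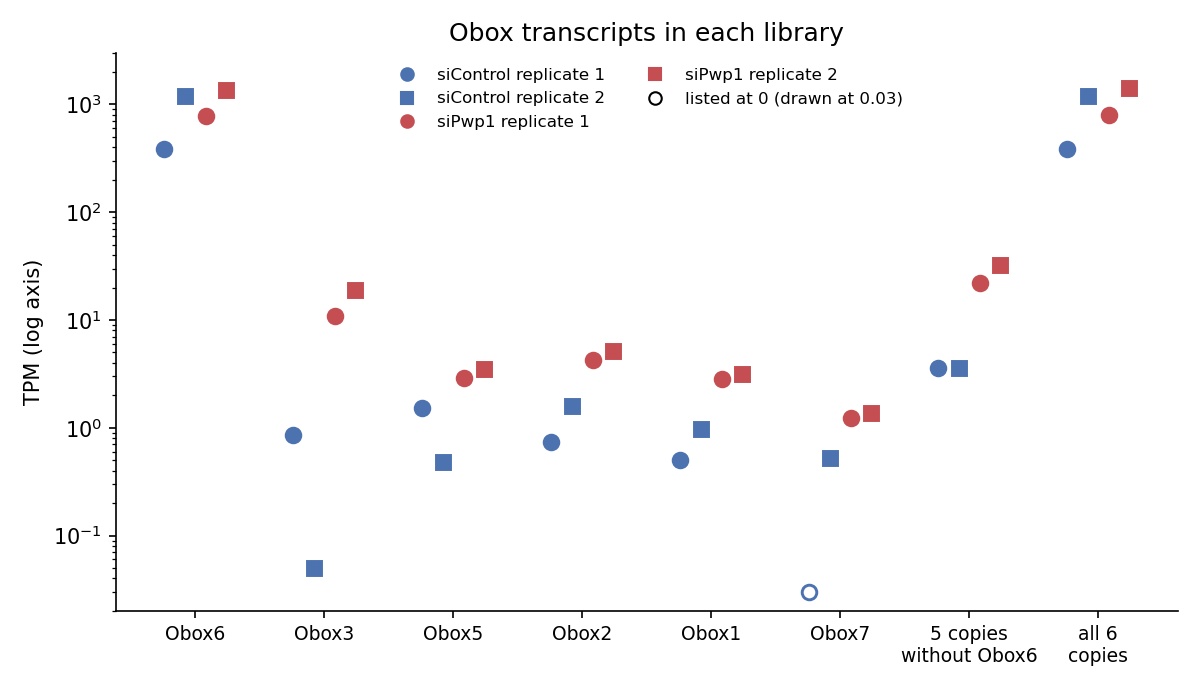
TPM (log axis) of each Obox copy, of the 5 copies without Obox6 and of all 6 copies, with 1 point per library (siControl blue, siPwp1 red, circles replicate 1, squares replicate 2). Obox6 lies between 384.0 and 1374.9 TPM with overlapping groups, and the 5 other copies summed lie at 3.61 and 3.62 TPM in the siControl pair against 22.1 and 32.2 TPM in the siPwp1 pair.

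Obox3, the copy known from genome activation, had the largest log2 fold change of the 6 copies. Its expected counts were 34 and 3 in siControl and 730 and 725 in siPwp1. In TPM these were 0.86 and 0.05 in siControl and 10.9 and 18.9 in siPwp1, so that among all genes Obox3 held rank 9762 and 13944 in siControl and rank 4503 and 3637 in siPwp1. Both siPwp1 libraries lay above both siControl libraries, and the lower siPwp1 library was 12.2-fold above the higher siControl library in CPM. In CPM the means were 0.624 ± 0.786 (SD, n = 2) in siControl and 19.3 ± 6.81 in siPwp1. The log2 fold change was 5.0 (SE 1.10), a 32.1-fold difference, with an unadjusted p of 0.00279 in edgeR's quasi-likelihood test and an adjusted p of 0.9998 over all genes, so Obox3 did not pass the threshold there. It ranked 27 of 13585 genes by p and 48 by the size of the increase. The Wald test of DESeq2 on the same genes gave an adjusted p of 1.18e-05. The siControl libraries themselves differed: at 3 counts, siControl replicate 2 was at the limit that a count of 0 allows (0.0683 CPM). Leaving it out lowered the log2 fold change to 4.02, while leaving out siControl replicate 1 raised it to 8.08.

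Obox1 and Obox2, the most alike of the maternal copies, were higher in siPwp1 by about the same factor. With Obox2 at 62.2% to 64.4% of their summed counts in every library, the like factors restate that split. They are not taken as 2 separate results, and whether the division of shared reads made them alike was not tested. Obox1 had 0.5 and 0.97 TPM in the 2 siControl libraries against 2.82 and 3.18 TPM in the 2 siPwp1 libraries. Obox2 had 0.74 and 1.58 TPM in the 2 siControl libraries against 4.24 and 5.16 TPM in the 2 siPwp1 libraries. For both genes the siPwp1 libraries lay above the siControl libraries. The log2 fold change was 2.0 (SE 0.733, unadjusted p = 0.0301 in edgeR) for Obox1 and 2.01 (SE 0.612, unadjusted p = 0.0137) for Obox2, and both had an adjusted p of 0.9998. Their sum, a measure added after the data were seen, was 1.28 and 2.46 CPM in the siControl pair against 7.11 and 8.07 CPM in the siPwp1 pair, with a log2 fold change of 2.01 (SE 0.536, unadjusted p = 0.00743, adjusted p = 0.9996 in edgeR). Since both genes were higher in siPwp1, the sum had to be higher as well, and it adds only a value free of the split.

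Obox5 and Obox7, the other maternal copies, were also higher in both siPwp1 libraries than in both siControl libraries, with differences closer to the spread within siControl. Obox5 had 1.52 and 0.48 TPM in the 2 siControl libraries against 2.87 and 3.51 TPM in the 2 siPwp1 libraries. Its log2 fold change was 1.62 (SE 0.785, unadjusted p = 0.0785 in edgeR, adjusted p = 0.9998), which became 2.75 without siControl replicate 1 and 0.98 without siControl replicate 2. Obox7, the least abundant copy, had 0 and 22 counts in siControl and 61 and 39 in siPwp1. A count of 0 in siControl replicate 1 allows a level of up to 0.104 CPM, against 0.501 CPM in siControl replicate 2 and 1.21 and 1.3 CPM in siPwp1. The log2 fold change of Obox7 was 2.26 (SE 1.57, unadjusted p = 0.194 in edgeR, adjusted p = 0.9998). It became 1.32 without siControl replicate 1. Leaving out siControl replicate 2 left Obox7 with a single control library at 0, and the fitted value of 8.51 then depends on the prior count and is not a bound.

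Obox6, the dominant copy, did not separate the groups. Its CPM was 420.1 and 1215.3 in siControl and 829.7 and 1397.4 in siPwp1, with means of 817.7 ± 562.3 (SD, n = 2) and 1113.6 ± 401.4. The libraries of replicate 2 were the higher ones in both groups, 2.89-fold in siControl and 1.68-fold in siPwp1, and siPwp1 replicate 1 lay below siControl replicate 2. The log2 fold change of 0.45 (SE 0.500, unadjusted p = 0.403 in edgeR, adjusted p = 0.9998) was smaller than its standard error. It turned to -0.13 when siControl replicate 1 was left out and became 1.4 when siControl replicate 2 was left out.

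**Figure D2:**
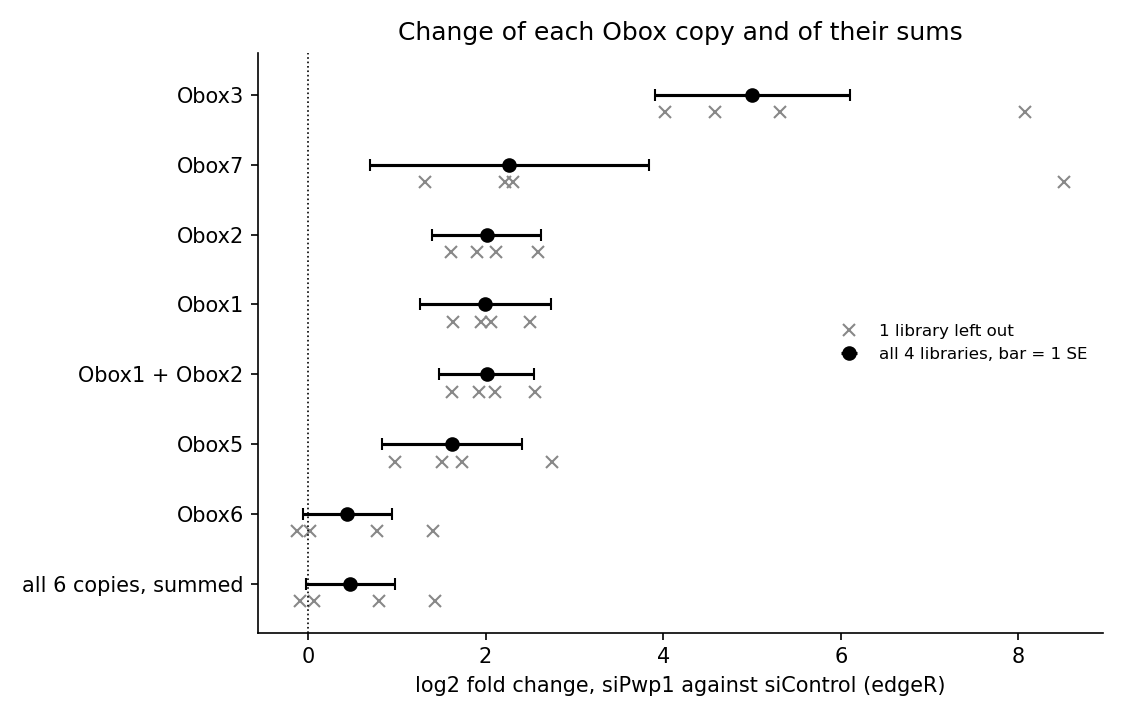
Log2 fold change of siPwp1 against siControl (edgeR) for each Obox copy, for Obox1 and Obox2 summed and for all 6 copies summed, as a black point with a bar of 1 SE, and in grey the 4 values with 1 library left out. Obox3 lies at 5.0 and keeps above 4 in each grey value, while Obox6 at 0.45 and the sum of all 6 copies at 0.48 have grey values on both sides of 0.

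Counted over the family, 5 of the 6 copies had both siPwp1 libraries above both siControl libraries and 0 had them below. Across all genes tested, 14.7% were higher in this sense and 14.1% lower. At an unadjusted p under 0.05 in edgeR, 3 of the 6 copies (Obox1, Obox2 and Obox3) were higher, beside 1.84% of all genes. After adjustment edgeR called 0 of the 6 copies and 0 of the 13585 genes (0% in either direction), with 250 genes higher and 112 lower at an unadjusted p under 0.05. DESeq2 called 1 of the 6 copies, Obox3, and 42 genes higher (0.309% of those tested). All 6 log2 fold changes were above 0, with a median of 2.01, whereas the median over all genes was -0.0010. These counts describe copies that share sequence and a genomic neighbourhood, and they are not independent of one another. All 6 members passed the filter on low counts, but Obox3 and Obox7 reached it in both siPwp1 libraries and only 1 siControl library, so that these counts do not serve as support for a direction.

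The family total did not separate the groups. Summed over the 6 copies, the family had 424.2 and 1218.8 CPM in the 2 siControl libraries against 855.4 and 1434.3 CPM in the 2 siPwp1 libraries. Its log2 fold change was 0.48 (SE 0.497, unadjusted p = 0.368 in edgeR, adjusted p = 0.9997), nearly that of Obox6 alone. Leaving out siControl replicate 1 gave -0.090 and leaving out siControl replicate 2 gave 1.43, where the edgeR adjusted p was 0.0497. The 5 copies other than Obox6 were summed after the data were seen. Each of them was already higher in both siPwp1 libraries, so their sum had to be higher too and is given as a description with no test. They had 4.10 and 3.50 CPM in the 2 siControl libraries against 25.7 and 36.9 CPM in the 2 siPwp1 libraries. Their siControl libraries were close to each other although Obox3, Obox5 and Obox7 differed between them, and the lower siPwp1 library was 6.28-fold above the higher siControl library.

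Obox6 held a slightly smaller share of the family in both siPwp1 libraries than in both siControl libraries. Obox6 took 99.1% and 99.7% of the family's TPM in siControl and 97.3% and 97.7% in siPwp1. By counts its share was 99.03% and 99.71% in siControl, with 95% Wilson intervals of 98.8% to 99.2% and 99.66% to 99.75%. In siPwp1 it was 96.99% and 97.43%, with intervals of 96.8% to 97.1% and 97.3% to 97.6%. These intervals cover counting error only, since reads amplified by PCR are not independent molecules. The groups did not overlap, and the mean TPM share was 1.90 percentage points lower in siPwp1 (a difference of -1.90). An exact two-sided permutation test gave p = 0.333, the smallest that 2 against 2 libraries allow. Obox3 took 0.222% and 0.00415% of the family's TPM in siControl and 1.36% and 1.35% in siPwp1, a difference of 1.24 percentage points with the same smallest exact permutation p of 0.333. The shares of Obox1, Obox2 and Obox7 were likewise higher in both siPwp1 libraries, and that of Obox5 overlapped between the groups. As parts of 1 total the 6 shares are not independent.

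Among the 5 copies other than Obox6, Obox3 was the largest part in siPwp1. Its share of their TPM was 23.8% and 1.39% in siControl and 49.5% and 58.9% in siPwp1. Obox5 took 42.0% and 13.3% in siControl and 13.0% and 10.9% in siPwp1. Obox2 took 20.4% and 43.8% in siControl and 19.2% and 16.04% in siPwp1, and Obox1 took 13.8% and 26.9% in siControl and 12.8% and 9.89% in siPwp1. The siControl libraries thus differed in which maternal copy led, Obox5 in replicate 1 and Obox2 in replicate 2, and the siPwp1 libraries had the same order, Obox3, Obox2, Obox5, Obox1 and Obox7. The siControl shares rest on few reads, 118 and 154 counts over the 5 copies, against 1300 and 1112 in siPwp1.

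**Figure D3:**
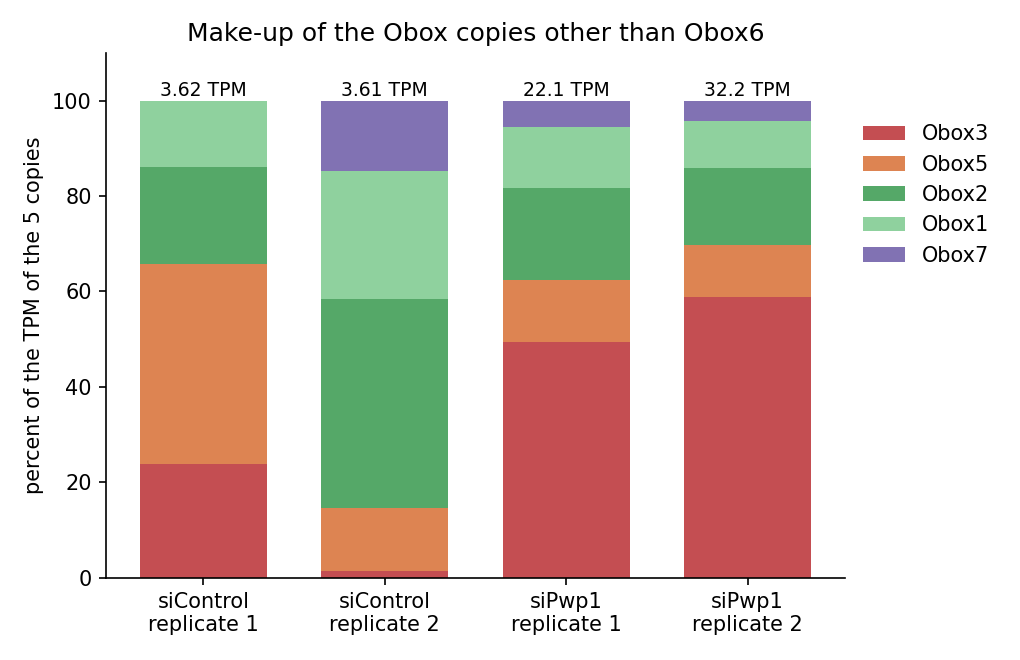
Percent of the summed TPM of the 5 Obox copies other than Obox6 taken by each copy, with 1 stacked bar per library and the summed TPM above it. Obox3 takes 23.8% and 1.39% in the siControl libraries and 49.5% and 58.9% in the siPwp1 libraries.

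The genes known to be transcribed around genome activation were compared next, since Obox3 belongs to that phase. Of 32 genes of the 2-cell stage, all tested, 22 had both siPwp1 libraries above both siControl libraries (beside 14.7% of all genes) and 0 had them below (beside 14.1%). At an unadjusted p under 0.05, 18 were higher in edgeR (beside 1.84%), the adjusted edgeR test called 0, and DESeq2 called 9 higher (beside 0.309%). All 32 log2 fold changes were above 0 and the median was 2.53, beside -0.0010 over all genes. The list was chosen with earlier results of these data known, so its choice may have favoured genes higher in siPwp1. Usp17le, for example, passed the filter on low counts through the siPwp1 libraries alone. The counts and the median of this list therefore do not serve as support for a direction. The member with the highest mean CPM, Sp110, a nuclear body protein gene, overlapped between the groups, at 136.7 and 424.3 CPM in the siControl pair against 267.5 and 441.2 CPM in the siPwp1 pair. Many of these genes are themselves copies of multi-copy families.

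Regulators of genome activation had a median near that of all genes. Members given below because they separated the groups were named after their values were seen. Of 16 tested, 0 were higher without overlap and 2 lower (Nfyc and Polr2a), beside 14.7% and 14.1% of all genes, with a median log2 fold change of 0.11. Dppa2, which with Dppa4 is known to act upstream of Dux, had 1325 and 1832 CPM in the 2 siControl libraries against 1421 and 1889 CPM in the 2 siPwp1 libraries. Dppa4 had 588.9 and 854.9 CPM in the 2 siControl libraries against 733.5 and 925.3 CPM in the 2 siPwp1 libraries. Nfyc, a subunit of the NF-Y factor, had 240.5 and 267.8 CPM in the 2 siControl libraries against 170.8 and 209.6 CPM in the 2 siPwp1 libraries, with an edgeR adjusted p of 0.9998. Dux, a homeobox gene active at the 2-cell stage and named here after its values were seen, had 0.347 and 0 CPM in the 2 siControl libraries against 0.218 and 0.365 CPM in the 2 siPwp1 libraries, and its groups overlapped.

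Related homeobox genes and oocyte markers lay on both sides of 0. Of 20 related homeobox genes listed in the files 14 were tested, of which 2 were higher without overlap (Mixl1 and Rhox6) and 3 lower (Dmbx1, Gsc and Rhox13), shares near the 14.7% and 14.1% of all genes, with a median log2 fold change of 0.037. Crxos, a homeobox gene of the early embryo, had 2484 and 2154 CPM in the 2 siControl libraries against 1968 and 2606 CPM in the 2 siPwp1 libraries. Otx2, a paired-like factor of the Otx type, had 6.35 and 15.5 CPM in the 2 siControl libraries against 12.2 and 20.1 CPM in the 2 siPwp1 libraries. Of 19 oocyte markers 15 were tested, of which 2 were higher without overlap (Bmp15 and Zp1) and 2 lower (Figla and Lhx8), again near the 14.7% and 14.1% of all genes, with a median of -0.082. Their summed level was 91.5 and 106.0 CPM in the siControl pair against 79.7 and 92.2 CPM in the siPwp1 pair. Ooep, a gene of the subcortical maternal complex, had 63.1 and 33.5 CPM in the 2 siControl libraries against 47.0 and 19.6 CPM in the 2 siPwp1 libraries. Nobox, an oocyte homeobox gene, was at 0 in all 4 libraries. Ooep made up much of that sum in siControl replicate 1, and the part of oocyte RNA in the levels of the maternal Obox copies was not tested.

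**Figure D4:**
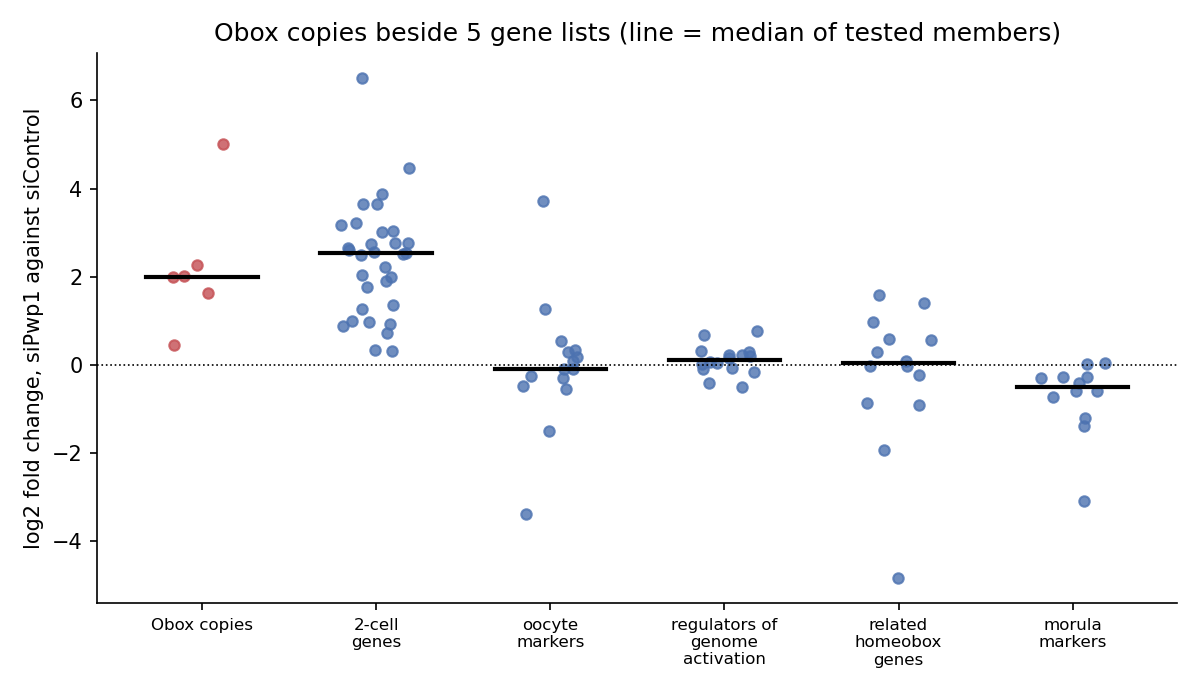
Log2 fold change of siPwp1 against siControl (edgeR) for the 6 Obox copies and for the tested members of 5 gene lists, 1 point per gene with random sideways scatter and a black line at the median. The medians are 2.01 for the Obox copies, 2.53 for the 2-cell genes, -0.082 for oocyte markers, 0.11 for regulators of genome activation, 0.037 for related homeobox genes and -0.50 for morula markers.

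The genes whose pattern over the 4 libraries was most like that of Obox3 were sought among 8253 genes with a mean of at least 5 CPM, by the Euclidean distance between centred log2 CPM. With identifiers counted but not named (10 of the 15 closest), they were Slc4a10, a bicarbonate transporter gene, at a distance of 1.23, Adcy2, an adenylyl cyclase gene, at 2.41, Zscan4d, a zinc finger gene of the 2-cell stage, at 2.53, Tcstv3, another 2-cell gene, at 3.31, and Inpp4b, a phosphoinositide phosphatase gene, at 3.89. Slc4a10 had 1.70 and 0.387 CPM in the 2 siControl libraries against 18.2 and 34.5 CPM in the 2 siPwp1 libraries. Zscan4d had 1.34 and 0.511 CPM in the 2 siControl libraries against 13.2 and 9.60 CPM in the 2 siPwp1 libraries. All 5 were higher in both siPwp1 libraries, which the measure of likeness itself selects.

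The family sum, which Obox6 sets, was matched by other genes. The closest were Zfp51 at a distance of 0.0444, Depdc1b at 0.0571, Sox15 at 0.0848, Sat2 at 0.102 and Txlng at 0.107. Such distances can be larger for a target that varies more between libraries, as Obox3 did, so they are not compared with those for Obox3. Sox15, a Sox transcription factor gene, had 141.6 and 378.8 CPM in the 2 siControl libraries against 279.2 and 479.3 CPM in the 2 siPwp1 libraries. All 5 had overlapping groups with replicate 2 above replicate 1 in both. Of the morula list, 4 genes of the trophectoderm, chosen after their values were seen, were lower in replicate 2 of both groups. Krt18, a keratin of the outer cells, had 211.4 and 15.4 CPM in the 2 siControl libraries against 162.4 and 25.6 CPM in the 2 siPwp1 libraries. The others were Krt8, its partner keratin, and Gata3 and Cdx2, both transcription factors of the trophectoderm. Krt8 had 192.7 and 15.6 CPM in the 2 siControl libraries against 116.4 and 21.3 CPM in the 2 siPwp1 libraries. Cdx2 had 15.4 and 2.14 CPM in the 2 siControl libraries against 5.76 and 0.897 CPM in the 2 siPwp1 libraries. Tead4, a trophectoderm regulator of the same list, was instead higher in replicate 2 of both groups, with 34.6 and 49.1 CPM in the siControl pair against 33.0 and 36.9 CPM in the siPwp1 pair. Esrrb was also higher there, and Klf5, Tfap2c and Nanog went different ways in the 2 groups. Lower replicate 2 values were not particular to the trophectoderm genes. Sox2, Pou5f1 and Cdh1 were lower there in both groups too. Sox2 had 8.16 and 0.205 CPM in the siControl pair against 0.732 and 0.232 CPM in the siPwp1 pair. Over all 12 morula markers the summed level was 1475 and 794 CPM in the siControl pair against 961 and 735 CPM in the siPwp1 pair, with 0 markers higher without overlap and 2 lower, Nanog and Pou5f1, where 14.1% of all genes were lower. The part of these differences between replicates in the level of Obox6 was not tested.

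**Figure D5:**
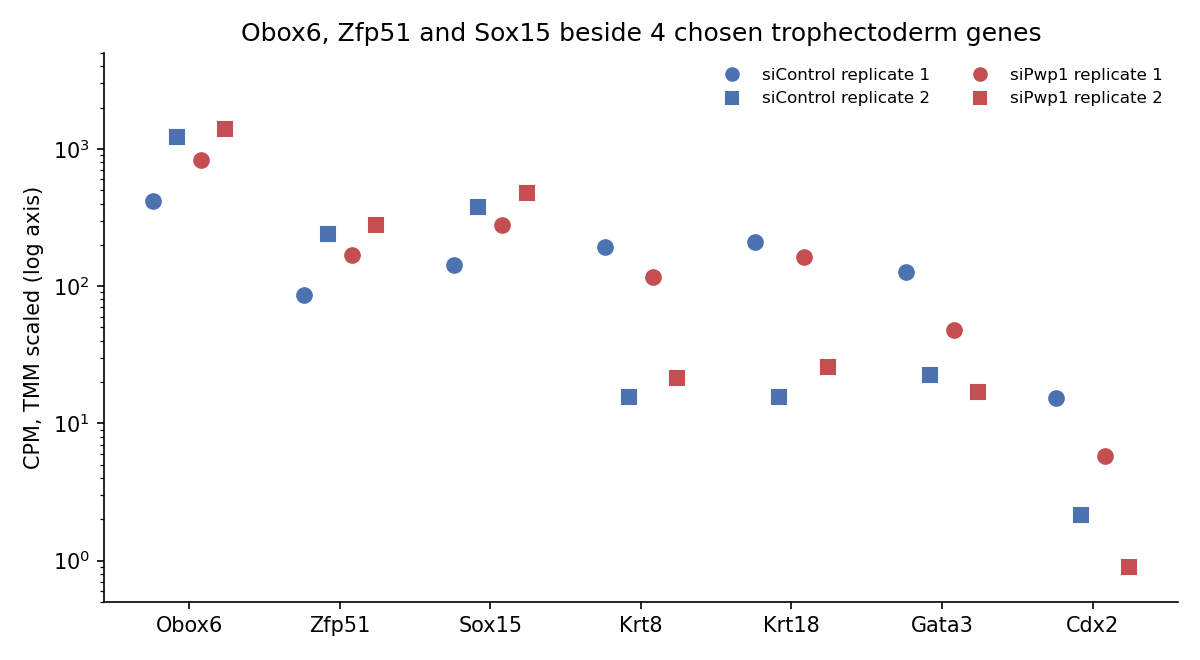
CPM (log axis) in each library of Obox6, of Zfp51 and Sox15, whose patterns are among the closest to the family sum, and of 4 trophectoderm genes chosen after their values were seen (siControl blue, siPwp1 red, circles replicate 1, squares replicate 2). Obox6, Zfp51 and Sox15 are higher in replicate 2 of each group, and Krt8, Krt18, Gata3 and Cdx2 are lower there. Tead4, a trophectoderm regulator of the same list that is not drawn, was higher in replicate 2 of each group.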

How the data were processed

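RNA was measured in 4 libraries, 2 siControl and 2 siPwp1, grouped by the sample titles. The expected counts in the deposited files are RSEM estimates for each gene and are not normalized, per the file headers. TPM and FPKM in the same deposited files were computed by the authors, per the file headers. The submitters' processing notes name STAR 2.7.10, RSEM 1.3.3 and mm10. How reads were trimmed, the annotation release and the strand setting were not given in the sources used here. Without a stated strand setting, reads of overlapping genes on opposite strands cannot be told apart.

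Expected counts were rounded and tested two-sided by quasi-likelihood (edgeR 4.0.16, R 4.3.3), with TMM scaling, a model of group alone and filterByExpr at a minimum count of 10. P-values were adjusted over all 13585 genes tested (Benjamini-Hochberg, threshold 0.05), also for the members. CPM are TMM scaled. Fold changes are siPwp1 over siControl, and the SE was obtained by dividing the size of the log2 fold change by the root of its F statistic. A count of 0 allows up to 3 counts, or 0.0594 to 0.104 CPM, for counting error only. Shares come from TPM, with Wilson 95% intervals from rounded counts. The scripts were tested on simulated data.

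The members, the gene lists, the tests and the rule for named genes were chosen with earlier results of these data known. The rule named the 6 members, Pwp1, the 3 members of each list with the highest mean CPM and the 5 genes closest to Obox3 and to the family sum (distance over centred log2 CPM with a prior count of 2). Symbols that are only identifiers were counted and not named, and for brevity some genes that the rule allows were left out. The alternatives were DESeq2 size factors, DESeq2 1.42.0, no filter, a filter of 5 CPM in 2 libraries, a threshold of 0.1, limma 3.58.1 on log2(TPM + 1) and log2(TPM + 0.1) for genes with 1 TPM in 2 libraries, the replicate number as a block, and each library left out in turn. A group left with 1 library took its spread from the other group, which assumes that both vary alike. Sequences are from RefSeq (promoters, GRCm38.p6) and GENCODE M21 (coding, GRCm38), and proteins were not analysed here.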

Additional observations from a re-analysis of the deposited data

How the results depend on the processing

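With 2 libraries per group, 1 library can decide a value. Over 68 alternatives for the single copies 67 values were above 0, 7 passed a threshold that the edgeR fit of all 4 libraries had not, all of them for Obox3, and 1 turned, Obox6 at -0.13 without siControl replicate 1. All are refits of the same 4 libraries, and the threshold of 0.1 repeats the same fold changes, so this tally does not serve as support for a direction. The cause was not tested for any of the changes given here. Obox3 was called with no filter (4.99, edgeR adjusted p = 2.46e-13), by DESeq2 (4.99, adjusted p = 1.18e-05) and with each library left out (4.02 to 8.08). Accordingly 1 copy was called in place of 0 with no filter, by DESeq2 and with each library left out (1 to 1), and limma called none of them, with adjusted p = 0.326 for Obox3 on log2(TPM + 1), where its value was 3.46. With no filter, or with either siPwp1 library left out, edgeR took the spread of each gene from all genes together. Its prior degrees of freedom were then infinite, against 4.84 in the fit of all 4 libraries with the filter. The difference between the siControl libraries of Obox3 thus did not set its spread in these fits, and their calls are not further support. With either siControl library left out, that difference could not enter the fit at all. The spread then came from the siPwp1 pair alone, so those calls are not further support either. The stricter filter kept 2 of the 6 members, Obox3 and Obox6. With a library left out Obox6 ranged from -0.13 to 1.4. The family sum ranged from -0.090 (without siControl replicate 1) to 1.43 (without siControl replicate 2). Obox5 ranged from 0.98 to 2.75 and Obox7 from 1.32 to 8.51 with a library left out, and neither was called. Over all genes, 99 were called higher and 7 lower with no filter, 42 and 2 by DESeq2, and 5 to 130 higher and 1 to 18 lower with a library left out. DESeq2 called 9 genes of the 2-cell list. The share of Obox3 in the family differed by 1.54 percentage points by counts, in place of 1.24 by TPM. Pwp1 was called with no filter, by DESeq2 and with each library left out (-3.30 to -2.54).

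The labels number the replicates alike in both groups and do not say that equal numbers share a culture. Deviations from the group means correlated at 0.317 over 13585 genes between the libraries numbered 1, which with 2 pairs does not show pairing. With the replicate number as a block, edgeR called Obox3 (5.38, adjusted p = 0.0144), so 1 copy, and Pwp1, with 71 genes called higher and 9 lower. The value of Obox7 was then 3.20 and was not called. Obox6 was at 0.59 (SE 0.183, unadjusted p = 0.00786, adjusted p = 0.305 in edgeR with the block). The family sum was at 0.62 (SE 0.183, unadjusted p = 0.00557, adjusted p = 0.259 in the same fit). Both values exceeded their SE, unlike in the model of group alone, and neither was called. Over all genes, 722 were higher at an unadjusted p under 0.05 with the block.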

Other observations

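GGATTA or TAATCC, the homeodomain core described for the Obox3 promoter, was also counted in the promoters of the 2-cell genes. It occurred in 6 of 18 promoters of 17 such genes that the RefSeq table holds (33.3%), beside 5.96% of the 13046 promoters of genes tested. Of these 6, a pair belongs to Sp110 and others to Tdpoz1 and Zfp352. The 2-cell list was chosen with earlier results of these data known, so this share does not serve as support for a link. The promoters of multi-copy genes share sequence and are not independent, the count was not tested, and no binding was measured. It is a description of letters in 300-base windows.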
